A study of Mus musculus with 15 samples.

Results

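The neurexins, the neuroligins, the Shank scaffolds and PSD-95 form a chain of proteins across the synapse, and 9 of their genes were followed in developing mouse Purkinje cells (PCs): *Nrxn2*, *Nrxn3*, *Nlgn1*, *Nlgn2*, *Nlgn3*, *Shank1*, *Shank2*, *Shank3* and *Dlg4*. They were found by their symbols in the GENCODE M21 annotation, where each symbol matched 1 Ensembl gene among the 38561 genes counted in every library. The data are 15 RNA-seq libraries of laser-captured PCs from male mice whose strain is spelled C56/BL6 in the labels, which name no mutant allele and no treatment. Libraries were made at postnatal day 0 (P0), P4, P8, P14 and P21, with 3 replicates per time point. PC soma were cut out one by one at P4 to P21, whereas at P0 clusters of PCs were cut out, so the P0 stage and the way its cells were collected cannot be told apart. The study's methods call the replicates biological, and the labels give no animal for each.

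Neurexins are presynaptic adhesion proteins that bind neuroligins on the postsynaptic membrane, and the contact helps to organize the synapse on both sides. Inside the postsynaptic cell, the tail of a neuroligin can bind PSD-95, the scaffold encoded by *Dlg4*, which connects through further adaptors to the Shank scaffolds of excitatory synapses. NLGN2 is known from inhibitory synapses and NLGN1 from excitatory ones, while NLGN3 occurs at both. PCs receive excitatory input from climbing fibres and parallel fibres and inhibitory input from basket and stellate cells, and these contacts form over the first postnatal weeks. RNA of captured PCs does not show at which synapses the proteins stand. The neurexins and neuroligins measured here need not be partners at the same synapse.

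The ends of the coding sequences are shown because they encode the tails through which these proteins meet their scaffolds. Each line gives the last 30 coding bases of the longest GENCODE M21 coding sequence on GRCm38, 5′ to 3′ on the coding strand, with the last 4 codons before the stop codon in capitals.
*Nrxn2*, chr19:6532119-6532148, plus strand: aagaacaaagacaaaGAGTATTACGTCtga
*Nrxn3*, chr12:90332381-90332410, plus strand: aaaaacaaggacaagGAGTATTATGTGtaa
*Nlgn1*, chr3:25433638-25433667, minus strand: ccccattcacattcaACAACCAGGGTAtag
*Nlgn2*, chr11:69825203-69825232, minus strand: ccccatccccactccACCACTCGGGTAtag
*Nlgn3*, chrX:101320233-101320262, plus strand: ccccactcacactccACTACCCGTGTAtag
The neurexin ends shared 24 of 30 bases with each other, and any pair of the neuroligin ends shared 23 or 24 of 30. A neurexin end and a neuroligin end shared 6 to 9 of 30. At the Shank ends, *Shank1* and *Shank2* shared 19 of 30 bases, *Shank2* and *Shank3* 17, and *Shank1* and *Shank3* 15.

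At P21 the members were spread over a wide range of levels. Levels are given in RPKM, which here means the count after TMM scaling of the library (CPM), divided by the gene's summed exon length in kilobases. *Nlgn2* stood highest at P21, with 66.2 ± 1.63 RPKM (SD, n = 3), and its 3 samples did not overlap those of the next gene. *Nrxn3* with 34.1 ± 5.68 RPKM and *Shank2* with 28.4 ± 3.42 RPKM followed, and their samples overlapped. *Shank1* came next with 19.6 ± 5.06 RPKM and overlapped *Nlgn3* with 15.6 ± 2.74 RPKM. The other members were much lower and overlapped each other: *Nlgn1* and *Nrxn2* had 2.29 ± 0.848 and 2.27 ± 0.824 RPKM, *Shank3* 1.93 ± 0.450 RPKM and *Dlg4* 1.2 ± 0.732 RPKM.

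This order was not the one at P0. There *Nrxn3* had the highest mean, 32.7 ± 8.35 RPKM (SD, n = 3), and its samples overlapped those of *Nlgn2* with 26.2 ± 7.65 RPKM. *Nlgn3* followed with 22.2 ± 3.32 RPKM and overlapped *Nlgn2* but not *Nrxn3*. *Shank2* with 10.6 ± 2.80 RPKM and *Shank1* with 6.36 ± 2.18 RPKM stood below these 3 genes, and the 4 other members were each below 2.4 RPKM on average. Levels between genes depend on the length used, and *Nlgn2* has the shortest summed exons of the members, 5785 bases. The paper scored RNA quality and reports that no principal component correlated significantly with the score. The part of RNA quality in levels between genes was not tested. *Nlgn3* shares 3823 of its 9271 exon bases with *Gm21986*, an overlapping processed transcript on the same strand, and with those bases left out of its length *Nlgn3* became 37.7 RPKM at P0, above the mean of *Nrxn3*, and 26.5 RPKM at P21. With the length of the longest transcript in place of the summed exons, the P21 means became 54.3 RPKM for *Nrxn3*, 34.1 for *Shank2*, 4.69 for *Nrxn2* and 2.51 for *Dlg4*, and the samples of *Nrxn3* no longer overlapped those of *Shank2*.

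**Figure D1:**
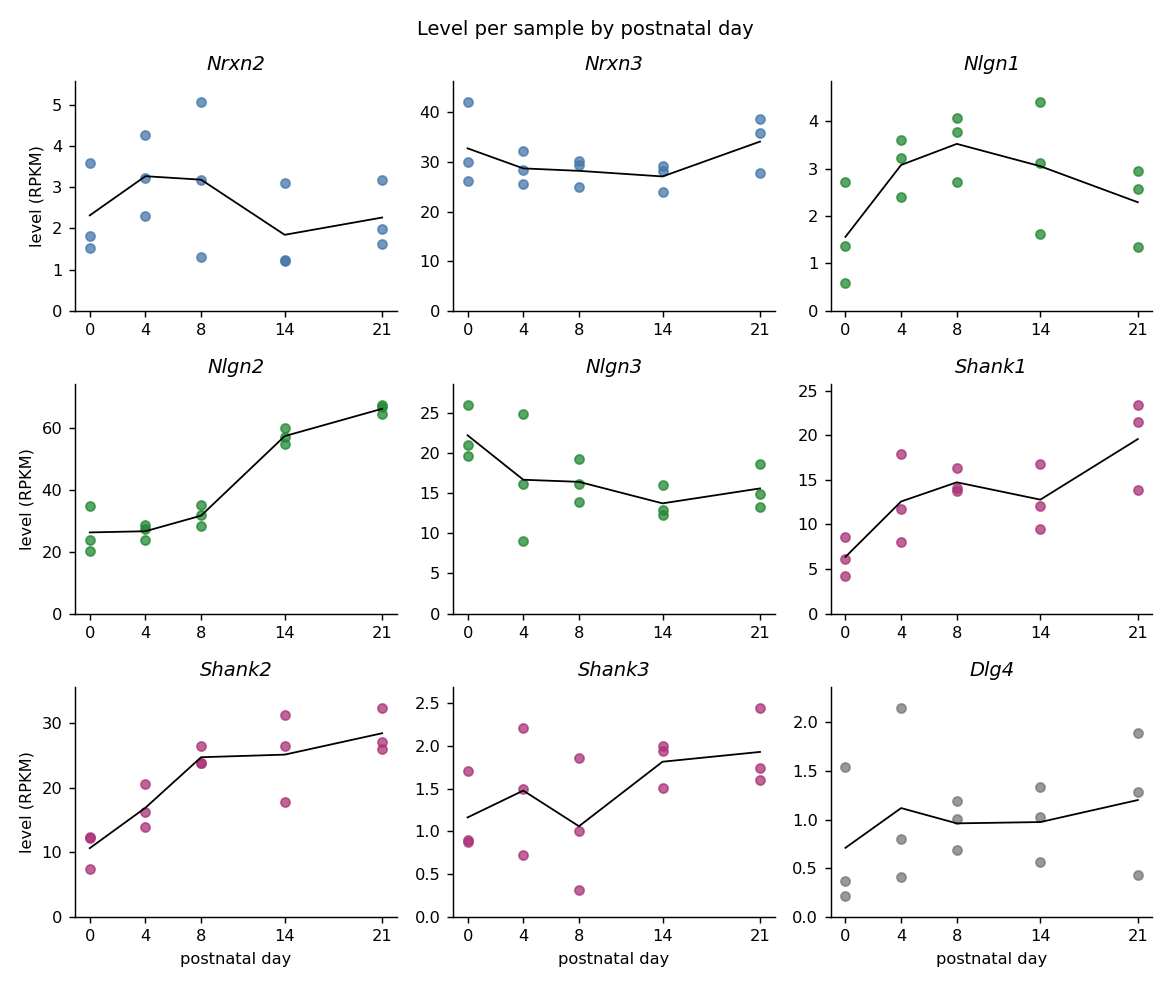
Level of each member in RPKM (vertical axis, from 0, scaled per gene) against postnatal day; points are the 3 samples per time point and the line joins their means. The *Nlgn2* samples of P14 and P21 lie above all its earlier samples, *Shank1* and *Shank2* climb from P0, and *Nrxn3* stays between 23.9 and 42.1 RPKM.

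Over the course, 3 of the 9 members rose and none fell. The question was whether a gene's count changes with postnatal day, tested by a straight line through the log2 level in edgeR's quasi-likelihood test, with Benjamini-Hochberg adjustment over all 14293 genes tested and a threshold of 0.05. The members that rose were *Nlgn2*, *Shank1* and *Shank2*, 3 of 9 where 12.1% of all tested genes rose. No member fell, where 14.1% of all tested genes did, and no member fell at an unadjusted p under 0.05 in edgeR or by DESeq2 or limma-voom. The median slope of the members was 0.023 log2 units per day against -0.0077 for all tested genes. All 9 members passed edgeR's filter on low counts. In bulk samples like these, fewer cells of a type and less RNA per cell cannot be told apart.

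The same 3 genes changed in the test of any difference between time points, which assumes no straight line and called 19.3% of all tested genes. edgeR's adjusted p in that test was 7.96e-05 for *Nlgn2*, 0.00283 for *Shank2* and 0.0236 for *Shank1*. For the other members it lay between 0.428 and 0.964.

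**Figure D2:**
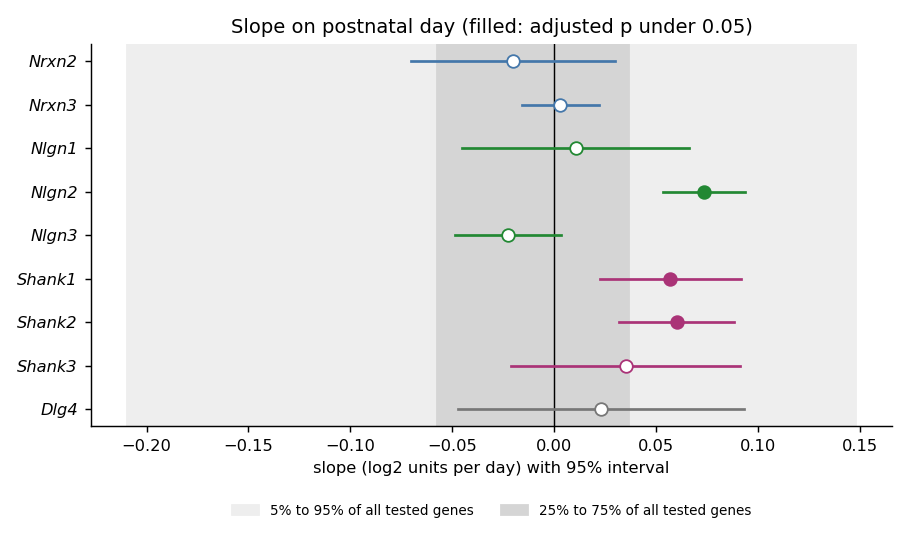
Slope of each member on postnatal day in log2 units per day (horizontal axis) with its 95% interval from edgeR's fit; filled points passed an adjusted p of 0.05, and the grey bands hold the middle 50% and 90% of the slopes of all 14293 tested genes. *Nlgn2*, *Shank1* and *Shank2* lie to the right of 0 with their whole intervals, and the 6 other intervals include 0.

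Among the neurexins, *Nrxn3* was well expressed, and no change with age passed the test. The gene (ENSMUSG00000066392) covers chr12:88722876-90334935 on GRCm38. Its 3 samples had 26.1, 42.1 and 30.01 RPKM at P0, 28.4, 32.1 and 25.6 at P4, and 30.3, 24.9 and 29.4 at P8. They had 23.9, 28.2 and 29.1 RPKM at P14 and 35.9, 27.7 and 38.7 at P21. All 5 time points overlapped. The slope was 0.0029 ± 0.0090 log2 units per day (SE), with an adjusted p of 0.856 in edgeR's test. Its 95% interval allowed a change from P0 to P21 between 0.79-fold and 1.37-fold, the narrowest range of the 9 members.

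*Nrxn2* (ENSMUSG00000033768, chr19:6418731-6544169) had 0.0415 to 0.168 times the level of *Nrxn3* per length within a sample, and its samples were scattered. It ranged from 1.21 RPKM in a P14 sample to 5.08 RPKM in a P8 sample, from 87 to 348 counts. Its P8 samples alone read 5.08, 1.30 and 3.18 RPKM. The slope was -0.020 ± 0.024 log2 units per day (SE; edgeR adjusted p = 0.591), and the interval over 21 days ran from 0.36-fold to 1.54-fold. The ratio of *Nrxn2* to *Nrxn3* within a sample had medians of 0.0586 at P0 and 0.0719 at P21, as levels per length.

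Among the neuroligins, *Nlgn2* rose 2.91-fold from P0 to P21 along the fitted line (95% interval 2.17 to 3.90). *Nlgn2* (ENSMUSG00000051790) lies at chr11:69823122-69837784 on the minus strand. Its samples had 20.2, 34.8 and 23.7 RPKM at P0, 28.5, 27.5 and 23.9 at P4, and 31.8, 35.0 and 28.2 at P8. They had 60.1, 54.9 and 57.0 RPKM at P14 and 67.4, 66.8 and 64.3 at P21. The 9 samples of P0 to P8 overlapped in level, and each of the 6 later samples lay above all 9. The P21 samples also lay above all P14 samples. The slope was 0.073 ± 0.0096 log2 units per day (SE), with an adjusted p of 1.39e-05 in edgeR's test, and it stayed past the threshold under all 22 alternatives, with adjusted p from 7.41e-11 to 0.00153.

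*Nlgn3* (ENSMUSG00000031302, chrX:101299168-101325963) had a slope below 0 that missed the threshold. Its samples had 26.0, 19.7 and 20.9 RPKM at P0, 24.8, 9.03 and 16.2 at P4, and 19.3, 13.8 and 16.1 at P8. They had 12.2, 16.0 and 12.9 RPKM at P14 and 13.2, 18.6 and 14.9 at P21. All P0 samples were above all P14 and P21 samples, while the P4 samples spanned nearly the whole range. The slope was -0.023 ± 0.012 log2 units per day (SE; edgeR adjusted p = 0.198), and the interval over 21 days ran from 0.49-fold to 1.05-fold. Reads from the bases that *Nlgn3* shares with *Gm21986* cannot be assigned to either gene, and the count of *Gm21986* itself reached at most 22 in a sample.

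*Nlgn1* (ENSMUSG00000063887, chr3:25426215-26332460) was the lowest neuroligin, between 0.589 and 4.41 RPKM. Its P0 samples read 2.72, 1.36 and 0.589 RPKM, from 39 to 190 counts. From the youngest to the oldest age the means were 1.56 ± 1.08, 3.08 ± 0.613, 3.52 ± 0.711, 3.05 ± 1.40 and 2.29 ± 0.848 RPKM (SD, n = 3), and the ages overlapped. No test separated these time points: the slope was 0.010 ± 0.027 log2 units per day (SE; edgeR adjusted p = 0.821), and edgeR's adjusted p for any difference was 0.446. The slope turned to -0.027 without the P0 time point. The antisense transcript *A830092H15Rik* shares 1229 of its exon bases, and it had a count of 0 in most samples and at most 30.

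The balance between *Nlgn2* and *Nlgn3* shifted toward *Nlgn2*. The log2 ratio of their counts within each sample, which needs no scaling between samples, was -1.04, 0.14 and -0.50 at P0, -0.48, 0.93 and -0.12 at P4, and 0.04, 0.66 and 0.13 at P8. It was 1.62, 1.1 and 1.46 at P14 and 1.67, 1.17 and 1.42 at P21. Each of the 6 samples of P14 and P21 lay above all 9 earlier ones. The ratio changed by 0.095 log2 units per day (2-sided permutation test with 100000 permutations, p = 0.00012, adjusted p = 0.00084 over 7 pairs within families). Per exon length, the median ratio was 1.13 at P0 and 4.31 at P21, or 0.665 and 2.53 with the shared bases of *Nlgn3* left out of its length.

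The ratio of *Nlgn2* to *Nlgn1* missed the threshold over the whole course. Its slope was 0.056 log2 units per day (2-sided permutation test, p = 0.0922, adjusted p = 0.323). The P0 samples, with log2 count ratios of 1.68, 3.46 and 4.10, covered nearly the whole range of the course. Among the later samples the ratio was 1.58 to 2.33 at P4 and P8 and 2.42 to 4.37 at P14 and P21. Without the P0 time point its slope was 0.116 with an adjusted p of 0.00574 in the same permutation test, and without P0 replicate 3 it was 0.082 with an adjusted p of 0.0354. The slope of *Nlgn3* to *Nlgn1* was -0.039 (permutation test, adjusted p = 0.602).

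**Figure D3:**
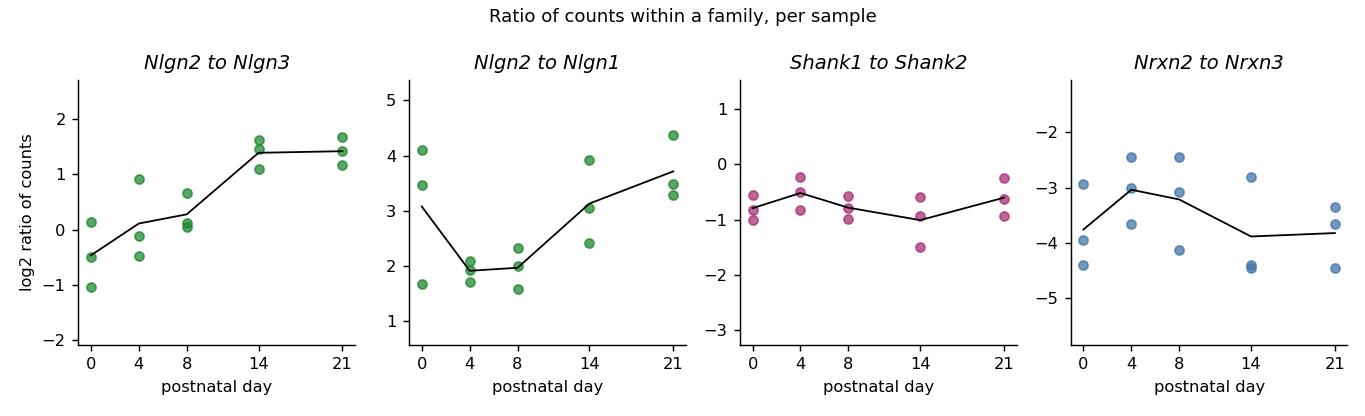
Log2 ratio of counts within each sample (vertical axis, the same span of log2 units in each panel) against postnatal day for *Nlgn2* to *Nlgn3*, *Nlgn2* to *Nlgn1*, *Shank1* to *Shank2* and *Nrxn2* to *Nrxn3*; points are samples and the line joins time point means. Only the first of these 4 ratios passed the permutation test, and its P14 and P21 samples lie above all earlier ones.

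RefSeq promoter sequences of 300 bases around a start site, on GRCm38.p6, matched 5 of the 9 members. The 1 promoter of *Nlgn2*, the member with the largest slope, is shown beside the first of *Nlgn1*, whose slope missed the threshold, both 5′ to 3′ on the minus strand. Capitals mark a TGACG, the half-site of the cAMP response element.
*Nlgn2*, chr11:69837735-69838034: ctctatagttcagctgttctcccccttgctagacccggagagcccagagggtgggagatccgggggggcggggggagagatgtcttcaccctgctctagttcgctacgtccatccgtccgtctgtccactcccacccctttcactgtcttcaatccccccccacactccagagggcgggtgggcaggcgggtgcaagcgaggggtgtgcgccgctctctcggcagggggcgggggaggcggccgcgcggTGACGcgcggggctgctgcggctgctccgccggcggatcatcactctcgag
*Nlgn1*, chr3:26331860-26332159: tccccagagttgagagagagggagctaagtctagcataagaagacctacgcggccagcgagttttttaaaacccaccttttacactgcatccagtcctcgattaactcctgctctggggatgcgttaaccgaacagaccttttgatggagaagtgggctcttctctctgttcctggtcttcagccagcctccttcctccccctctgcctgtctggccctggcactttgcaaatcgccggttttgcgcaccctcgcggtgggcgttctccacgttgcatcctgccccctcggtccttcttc
The *Nlgn2* window was 68.7% G and C with 26 CpG dinucleotides, and the *Nlgn1* window 55.7% with 14. The median over all 32851 RefSeq promoters was 52.7% with 7 CpG dinucleotides. TGACG, sought on both strands, stood once in the *Nlgn2* window and is held by 20.8% of all promoters. It also stood once in promoter 3 of *Dlg4*, whose slope missed the threshold. The promoter of *Shank3*, another member without a call, was 81.0% G and C with 40 CpG dinucleotides. A link between these features and the slopes was not tested. Neither the *Nlgn2* nor the *Nlgn1* window held AGGTCA, the nuclear receptor half-site found in 16.3% of promoters. Neither held CACGTG, an E-box found in 7.15%, so no matches overlapped.

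Among the Shank scaffolds, *Shank2* and *Shank1* rose, the former at the higher level in every sample. *Shank2* (ENSMUSG00000037541, chr7:144001928-144424494) had 12.1, 12.3 and 7.40 RPKM at P0, 16.2, 20.5 and 13.9 at P4, and 23.8, 26.4 and 23.9 at P8. It had 31.2, 17.8 and 26.4 RPKM at P14 and 32.3, 27.0 and 25.9 at P21. All P0 samples lay below all others, and the P8, P14 and P21 samples overlapped. The slope was 0.060 ± 0.013 log2 units per day (SE; edgeR adjusted p = 0.00242), or 2.4-fold from P0 to P21 (95% interval 1.59 to 3.61).

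*Shank1* (ENSMUSG00000038738, chr7:44310253-44360572) had 6.18, 8.62 and 4.28 RPKM at P0, 11.7, 17.9 and 8.05 at P4, and 16.3, 13.7 and 14.1 at P8. It had 16.8, 12.1 and 9.51 RPKM at P14 and 21.5, 23.4 and 13.8 at P21. The lowest P4 sample overlapped the P0 samples, and the P8, P14 and P21 samples were all above them. The slope was 0.057 ± 0.016 log2 units per day (SE; edgeR adjusted p = 0.0148), or 2.29-fold (95% interval 1.38 to 3.78).

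Both Shank calls rested on the P0 time point. Without P0 the slope of *Shank2* was 0.038 with an adjusted p of 0.0578 in edgeR's test, and that of *Shank1* was 0.033 with an adjusted p of 0.187. Their adjusted p for any difference was then 0.101 and 0.341, in the same order (edgeR). The *Shank1* slope also lost its call without P21 replicate 2 (adjusted p = 0.0559, edgeR). Its test of any difference lost the call without P0 replicate 1 (adjusted p = 0.0800), P0 replicate 3 (0.0916), P21 replicate 1 (0.0644) or P21 replicate 2 (0.0696), all by edgeR. The log2 ratio of *Shank1* to *Shank2* counts changed by -0.0010 per day (2-sided permutation test, adjusted p = 0.935), and -0.010 to 0.0036 with 1 library left out. Its time point medians per length lay between 0.537 and 0.723.

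*Shank3* (ENSMUSG00000022623, chr15:89499623-89560261) was the lowest of the Shank genes at every age, between 0.311 and 2.44 RPKM, from 15 to 157 counts. From the youngest to the oldest age its means were 1.16 ± 0.470, 1.48 ± 0.742, 1.06 ± 0.778, 1.82 ± 0.271 and 1.93 ± 0.450 RPKM (SD, n = 3), and the ages overlapped. The slope was 0.035 ± 0.027 log2 units per day (SE; edgeR adjusted p = 0.378), and the interval over 21 days ran from 0.73-fold to 3.77-fold. That interval holds the fitted folds of *Shank1* and *Shank2*. The ratios of *Shank1* and of *Shank2* to *Shank3* had slopes of 0.020 and 0.021 log2 units per day (permutation test, adjusted p = 0.610 for both). *Gm15609*, a long noncoding RNA on the opposite strand, shares 271 exon bases with *Shank3* and made up as much as 37.6% of the counts of both genes in a sample.

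*Dlg4* (ENSMUSG00000020886, chr11:70016942-70047522), the gene of PSD-95, was at the lower end throughout. It ranged from 0.218 RPKM in a P0 sample to 2.15 RPKM in a P4 sample, from 15 to 166 counts. Its P0 samples read 0.218, 1.54 and 0.367 RPKM and its P21 samples 1.89, 0.432 and 1.28 RPKM, so that either age alone covered most of the range of the course. The slope was 0.023 ± 0.033 log2 units per day (SE; edgeR adjusted p = 0.671), and the interval over 21 days ran from 0.50-fold to 3.87-fold. The coefficient of variation between replicates that edgeR estimated was 0.697 for *Dlg4*, against 0.188 for *Nlgn2* and 0.192 for *Nrxn3*.

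Between neighbouring time points a single member passed edgeR's test, *Nlgn2* from P8 to P14, where 2.67% of all tested genes were called. Its change there was 0.86 ± 0.20 log2 units (SE; edgeR adjusted p = 0.0263), with every P14 sample above every P8 sample. Leaving out any 1 of the 6 libraries in this step, P8 replicate 1, 2 or 3 or P14 replicate 1, 2 or 3, ended the call, with edgeR adjusted p of 0.0978, 0.0589, 0.121, 0.110, 0.0639 and 0.0945 and a change of 0.79 to 0.94. The other *Nlgn2* steps were 0.02 from P0 to P4, 0.25 from P4 to P8 and 0.21 from P14 to P21.

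For *Shank1* and *Shank2* the largest step was P0 to P4, and no step passed the adjusted threshold. From P0 to P4, edgeR called 0 of 9 members against 1.97% of all tested genes, and 2 members had an unadjusted p under 0.05. These were *Shank1*, with 0.98 ± 0.33 log2 units (SE; edgeR adjusted p = 0.156), and *Shank2*, with 0.67 ± 0.24 (edgeR adjusted p = 0.196). From P4 to P8, where 1.13% of all tested genes were called, edgeR called 0 members and 1 had an unadjusted p under 0.05, *Shank2* with 0.55 ± 0.24 log2 units (SE; edgeR adjusted p = 0.378). From P14 to P21, where 0.329% were called, edgeR called 0 members and 0 had an unadjusted p under 0.05; the *Shank1* step there, its second in size, was 0.61 ± 0.32 log2 units (SE; edgeR adjusted p = 0.759). DESeq2's Wald test gave the same number of called members in each step.

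**Figure D4:**
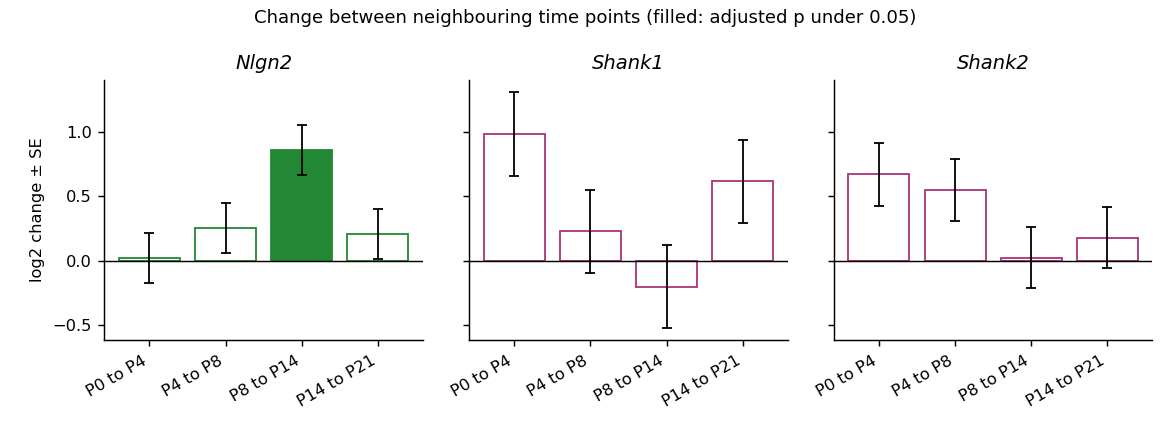
Log2 change between neighbouring time points (vertical axis) for *Nlgn2*, *Shank1* and *Shank2*; bars start at 0, error bars are the SE from edgeR's fit, and a filled bar passed an adjusted p of 0.05. The filled bar is *Nlgn2* from P8 to P14, 0.86 log2 units, and for both Shank genes the tallest bar is P0 to P4.

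Other synaptic adhesion genes, neurexin ligands among them, moved in both directions. Of 47 tested genes for neurexin ligands and further synaptic adhesion proteins, 5 rose and 13 fell, with a median slope of -0.036 log2 units per day. *Clstn3*, a calsyntenin that binds neurexins, rose from a mean of 137 CPM at P0 to 1104 CPM at P21, with a slope of 0.14 ± 0.014 (SE; edgeR adjusted p = 8.51e-07). *Il1rap*, a partner of presynaptic receptor phosphatases, rose from 8.04 to 61.5 CPM (slope 0.14, edgeR adjusted p = 0.00259). *Nxph4*, a neurexophilin that binds neurexins, fell from 114 to 2.68 CPM (slope -0.29, edgeR adjusted p = 4.50e-07). *Lrrtm1*, a leucine-rich neurexin ligand, fell from 81.2 to 3.73 CPM (slope -0.23, edgeR adjusted p = 0.000107).

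Of 17 tested genes for proteins that bind neurexins inside the presynaptic terminal or act beside them, 3 rose and 4 fell, with a median slope of 0.0093. *Lin7a*, which forms a complex with CASK, rose from 14.1 CPM at P0 to 109 CPM at P21 (slope 0.12, edgeR adjusted p = 0.00964), and *Sdcbp*, the gene of syntenin, from 117 to 279 CPM (slope 0.075, edgeR adjusted p = 0.00202). *Cask*, whose PDZ domain takes up the neurexin tail, fell from 213 to 62.9 CPM (slope -0.096, edgeR adjusted p = 0.000309). *Syt1*, the calcium sensor of vesicle release, fell from 522 to 120 CPM (slope -0.11, edgeR adjusted p = 0.000276).

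Of 31 tested genes for further scaffolds of the postsynaptic density, 6 rose and 4 fell, with a median slope of 0.0073. The largest rises were those of *Baiap2*, an actin regulator that binds Shank proteins, from 25.6 to 990 CPM (slope 0.27, edgeR adjusted p = 7.71e-07), and *Homer3*, a scaffold of metabotropic glutamate receptors, from 14.2 to 850 CPM (slope 0.26, edgeR adjusted p = 2.16e-06). *Homer2*, of the same family as *Homer3*, fell from 69.9 to 11.3 CPM (slope -0.14, edgeR adjusted p = 0.000896). *Dlgap3*, one of the adaptors between PSD-95 and Shank, fell from 10.6 to 2.62 CPM (slope -0.13, edgeR adjusted p = 0.0211). Of the other *Dlgap* genes, *Dlgap1* rose from 51.2 to 344 CPM (slope 0.12, edgeR adjusted p = 6.77e-06). *Dlgap4* rose from 216 to 360 CPM (slope 0.035, edgeR adjusted p = 0.00799), and *Dlgap2* missed the threshold. These other *Dlgap* genes were named after their values were seen.

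Of 12 tested genes for inhibitory synapse scaffolds and their partners, 5 rose and 0 fell, with a median slope of 0.045. *Insyn1* rose from 2.43 to 61.0 CPM (slope 0.23, edgeR adjusted p = 0.000155) and *Dmd*, the gene of dystrophin, from 69.6 to 171 CPM (slope 0.081, edgeR adjusted p = 0.00359). *Gphn*, the gene of the scaffold gephyrin, rose from 48.8 to 94.4 CPM (slope 0.052, edgeR adjusted p = 0.0372); it was named after its value was seen, as NLGN2 binds gephyrin. Of all tested genes 12.1% rose, beside 10.6%, 17.6%, 19.4% and 41.7% of these 4 lists in the order given. Of all tested genes 14.1% fell, beside 27.7%, 23.5%, 12.9% and 0% of the lists.

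Some genes outside these lists followed a member closely over the 15 samples. As a description, the Pearson correlation of log2 CPM was taken over 9301 protein-coding genes, all samples sharing the same age course. The values printed are the highest among 9301 over only 15 samples, so they are high by selection, and none was tested. The closest to *Nlgn2* were *Ece1* and *Clic6* (r = 0.96 for both), to *Shank1* *Slc6a8* (0.91) and *Cacng2* (0.91), and to *Shank2* *AK157302* and *Sv2a* (0.95 for both). The members without a call had looser neighbours, such as *Top3b* for *Nlgn1* (0.88), *Casp2* for *Nlgn3* (0.85), *Prune1* for *Dlg4* (0.88) and *Ift80* for *Shank3* (0.86). For *Nrxn2* and *Nrxn3* they were *Pphln1* (0.79) and *Ip6k2* (0.75).

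The makeup of the libraries also changed with age. Total counts on genes were 3409371 to 7814951 per library. All 6 PC markers rose, and their summed level went from 4549 to 6007 CPM at P0 to 36886 to 46640 CPM at P21. Of 9 Bergmann glia and astrocyte markers 4 rose and 2 fell, and their summed level was 4146 to 5745 CPM at P0, 8421 to 10223 at P8 and 3871 to 5789 at P21. This sum mixed opposite courses: *Sept4*, *Gja1*, *Slc1a2* and *Slc1a3* rose, and *Fabp7* and *Aldh1l1* fell. From P0 to P21 the mean of *Fabp7* went from 2687 to 186 CPM and that of *Slc1a3* from 1439 to 2511 CPM. All 6 oligodendrocyte markers rose, from a sum of 14.04 to 59.8 CPM at P0 to 626 to 1286 CPM at P21, and all 4 markers of dividing cells fell, from 385 to 415 CPM to 0.334 to 2.54 CPM. Of 6 granule neuron markers 3 rose: *Gabra6*, *Cbln3* and *Etv1*. *Gabra6* had means of 0.0641 CPM at P0, 4.25 at P8, 103 at P14 and 63.5 at P21. At the same ages *Cbln3* had 0.132, 5.34, 87.4 and 73.9 CPM. *Neurod1*, the highest of the 6, had 211, 550, 363 and 199 CPM and no slope call (-0.0105 per day, edgeR adjusted p = 0.818). *Fat2* and *Barhl1* also missed the threshold. The 6 summed to 194 to 312 CPM at P0, 449 to 1157 at P14 and 292 to 638 at P21. Interneuron and Golgi cell markers summed to at most 118 CPM, vascular markers to at most 121 and microglia markers to at most 25.5 CPM in a library. The mean PC and oligodendrocyte sums were higher, and the mean dividing cell sum lower, at each time point than at the one before, while the glial sum at P21 overlapped that at P0. The part of these shifts in the rises of *Nlgn2*, *Shank1* and *Shank2* was not tested.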

How the data were processed

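RNA of laser-captured PCs was amplified with the SMARTer Ultra Low RNA Kit and sequenced, with 1 library per sample. The authors trimmed the reads with cutadapt 1.2.1, aligned them to GRCm38/mm10 with GSNAP and counted the uniquely mapping reads per Ensembl gene with HTSeq 0.5.3p9, according to the submitters' processing notes and the paper's methods. The deposited values are whole-number counts without normalization. HTSeq's tallies of reads not assigned to a gene were 18.2% to 31.0% of a library and highest at P0. They were left out of library sizes and tests. The annotation release and the strand setting used for counting are not given in the sources used here, so reads in bases that genes share are uncertain.

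From the counts, slopes on day, any difference between time points and neighbouring steps were fitted to all genes with edgeR 4.0.16 in R 4.3.3 (quasi-likelihood F test, TMM, filterByExpr, Benjamini-Hochberg adjustment). SEs were derived from the estimate and its F statistic. Log2 ratios of counts used a pseudocount of 0.5. DESeq2 1.42.0 and limma 3.58.1 gave alternatives. Python 3.11.15 with numpy 2.4.6, pandas 2.3.3 and matplotlib 3.10.9 did the rest. The tests were tested on simulated counts. Library sizes of 3409371 to 7814951 put a floor of 3 counts at 0.384 to 0.880 CPM, which covers counting error only. Replicates of a time point differed by 19.3 to 59.5 in chi-square per gene, far above sampling noise, so none was merged.

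The genes named are all 9 members, the closest genes by correlation (mean of at least 10 CPM) and, per list, the 2 called genes with the largest slope each way among those reaching 10 CPM. *Gphn*, the *Dlgap* genes beside *Dlgap3* and the named cell type markers stand outside this rule. The members and lists were chosen with earlier results of these data known, and the lists' counts are not independent evidence. Some genes stand in more than 1 list. A gene of these lists that is counted is not reported here by name. Replicate numbers did not pair samples. Alternatives covered the test, normalization, filter, time scale, replicate block, P0, each library and the gene length; leaving shared exon bases out of the length was added after seeing the data.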

Additional observations from a re-analysis of the deposited data

How the results depend on the processing

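*Nlgn2* kept its rise under all 22 alternatives. Without the P0 time point, 1 member rose and 1 changed between any time points, in place of 3 each. *Shank2* kept its slope call under the 21 other alternatives and *Shank1* under 20 of 22. Leaving out 1 library gave 2 to 3 members rising, 2 to 3 changed between any time points and 0 to 1 changed from P8 to P14.

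Slopes that missed the threshold changed sign for *Nrxn3* on the log2(day + 1) scale (-0.015) and for *Nlgn1* without P0 (-0.027). With 1 library left out they ran from -0.0034 to 0.011 for *Nrxn3* and from -0.0074 to 0.027 for *Nlgn1*. Without P0 the ratio slopes of *Nlgn3* to *Nlgn1*, *Shank1* to *Shank3* and *Shank2* to *Shank3* turned to 0.029, -0.017 and -0.012, and that of *Nlgn2* to *Nlgn1* passed the threshold at 0.116 (0.039 to 0.082 with 1 library left out). *Shank1* to *Shank2* ran from -0.010 to 0.0036. The causes were not tested.

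Over all genes, DESeq2's Wald test called 773, 496, 844 and 175 genes in the 4 steps, in time order, against 281, 162, 382 and 47 by edgeR. With 1 library left out, edgeR called 186 to 302, 74 to 201, 163 to 441 and 24 to 68.

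Same-numbered samples of different time points did not deviate together (mean r of -0.0033 over 30 pairs). A replicate block left 3 members rising, with *Shank1* at 0.058 per day (adjusted p = 0.00914, edgeR), and changed no call. For 6 of 9 members the P21 level moved by more than 1 SD with the longest transcript as length. The low counts of *Shank3* and *Dlg4* leave wide intervals.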

Other observations

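The transcripts that overlap the members on the other strand were counted unevenly. *Gm15609*, opposite *Shank3*, reached 64 counts in a P21 library and had a median of 0 at P4, P14 and P21. *A830092H15Rik*, opposite *Nlgn1*, reached 24 counts in a P0 library and 30 in a P14 library, with a median of 0 at every time point. *1700008O03Rik*, opposite *Shank1*, had a count of 5 to 37 in the P0 libraries, where it made up as much as 14.3% of the counts of both genes, and of 0 in all P21 libraries. The study's methods describe no strand-specific library step, so the strand from which these counts came cannot be told.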
